A study of Mus musculus with 8 samples.

Results

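The SLC25 family comprises the mitochondrial carriers, the proteins that move nucleotides, phosphate, carboxylates, amino acids and cofactors across the inner mitochondrial membrane. Its members here were the mouse genes whose symbol, mapped from the RefSeq accession of a probe, begins with Slc25a, and 47 of the 22911 genes named on the array met that rule. Each gene was read from its brightest probe over the 8 arrays, and 81 of the 56605 probes tested belonged to the family. A further symbol in the reference, Slc25a5-ps, a pseudogene, had no mapped probe.

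Most carriers are nuclear-encoded proteins that exchange one metabolite for another and so join the cytosol to the matrix. In β-cells, glucose metabolism supplies the mitochondrial ATP that triggers insulin secretion, and ADP/ATP exchange, phosphate import, the malate-aspartate shuttle and the export of citrate all pass through members of this family. Mitochondrial function was 1 of the features the study compared between genotypes, which gives the question addressed here, namely whether the transcripts of these carriers differed between the islets.

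Islets came from 11-week-old mice of 2 groups with 4 arrays each, and each RNA extraction used 150 islets. Control mice carried floxed Fbln5 alleles, and βFbln5KO mice carried floxed Fbln5 together with Cre under the mouse insulin 1 promoter. Fbln5 encodes fibulin-5, a secreted matricellular protein. The floxed mice were not labelled as carrying Cre, so an effect of Cre itself and one of the deletion cannot be told apart. Whole islets also hold endocrine cells other than β-cells, endothelial cells and some exocrine tissue in which this Cre is not meant to act. A level per array therefore averages over those cells, and fewer cells of a type cannot be told apart from less RNA per cell. The labels do not say whether the 4 extractions of a group came from separate mice, so p-values measure only the spread between these samples, which may be technical.

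The arrays were comparable in overall signal, with a 75th percentile of 709 to 1012 in control islets and 910 to 1055 in βFbln5KO islets. All levels given here are log2 signals relative to that percentile of the same array, so that 0 marks a probe at the 75th percentile. Levels of different probes are not set against each other, because probes differ in how brightly they report a transcript. The dimmest signals differed by genotype, and the detection limit, the lowest signal well above background, was −5.01 to −4.79 on control and −4.70 to −4.19 on βFbln5KO arrays. All 8 β-cell markers were detected throughout, with a mean level of 5.13 to 5.20 in control and 5.05 to 5.18 in βFbln5KO. The 7 acinar markers were also bright, with a mean level of 6.56 to 8.34 in control and 5.65 to 7.58 in βFbln5KO. Of the other marker lists, that of 5 macrophage genes did not overlap between genotypes (−0.98 to −0.79 in control and −0.49 to −0.41 in βFbln5KO), with 1 of them, Cd5l, called higher and well above background on 1 array, and that of 5 α-cell genes was at 3.29 to 3.43 and 2.98 to 3.29. Spots marked as outliers numbered 125 to 175 on control and 176 to 398 on βFbln5KO arrays, with the 176 on the fourth. The part of these differences in the carriers' levels was not tested. Each genotype filled 1 row of the slide, and the effects of genotype and of the row cannot be told apart.

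The deleted gene was read first. Fbln5 had levels of −1.70, −1.32, −2.05 and −1.83 on the control arrays and of −2.74, −2.40, −2.38 and −1.37 on the βFbln5KO arrays. The fourth array labelled βFbln5KO lay inside the control range, while the other 3 lay below it. The log2 fold change was −0.50 (SE 0.286, limma unadjusted p = 0.115, adjusted p = 0.342, n = 4 per group). Leaving out the fourth array, which was singled out by this same level, gave −0.78, a value that the choice of array makes larger and that is no test. In the fit without it 20.4% of all probes passed the adjusted threshold, beside 0.0106% with all arrays, so an adjusted p from that fit cannot be set against one from all arrays. Whether the probe lies in the deleted exons was not determined, so the check on the labels is partial. Results are therefore also given without the fourth βFbln5KO array where they rest on it.

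Of the 47 carriers, 37 were detected throughout, that is, well above background on each of the 8 arrays. A further 8 were detected on 1 to 7 arrays, and Slc25a21 and Slc25a41 on none. No carrier passed the adjusted threshold, which 0.0106% of all probes passed, and the smallest adjusted p of a member was 0.138. At an unadjusted limma p under 0.05, Slc25a1 was higher in βFbln5KO islets. Slc25a31 and Slc25a48 also passed that p, the first with higher and the second with lower signals in βFbln5KO, but each was well above background on a single array, in the group where its signal was higher. Over all genes, 16.8% were higher and 2.68% lower by that rule. Among genes well above background on all 8 arrays those shares were 1.01% and 3.08%, and of the 37 carriers measured there 1 was higher and 0 lower.

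Fold changes over the family were centred near those of all genes. The median log2 fold change of the 47 carriers was 0.023, beside 0.024 over all genes, with 28 values above 0 and 19 below. For the 37 carriers detected throughout, the median was 0.019, beside −0.0082 over all genes detected throughout, and single values ran from −0.48 to 0.31. Without the fourth βFbln5KO array the medians were −0.013 and −0.017, beside 0.017 and −0.015 for the same sets of all genes. In 2.81% of all genes detected throughout, the control and βFbln5KO arrays did not overlap, and the count among the 37 carriers was 0.

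The intervals showed how much change the arrays could have missed. For 27 of the 37 carriers (73.0%) the 95% interval of the fold change lay wholly within 1.3-fold in either direction, a bound chosen after the values were seen. Of all genes detected throughout, 67.9% met it. The median SE was 0.0841 on the log2 scale for these carriers and 0.0902 for those genes. Without the fourth βFbln5KO array, 26 carriers (70.3%) met the bound, beside 64.2% of those genes.

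**Figure D1:**
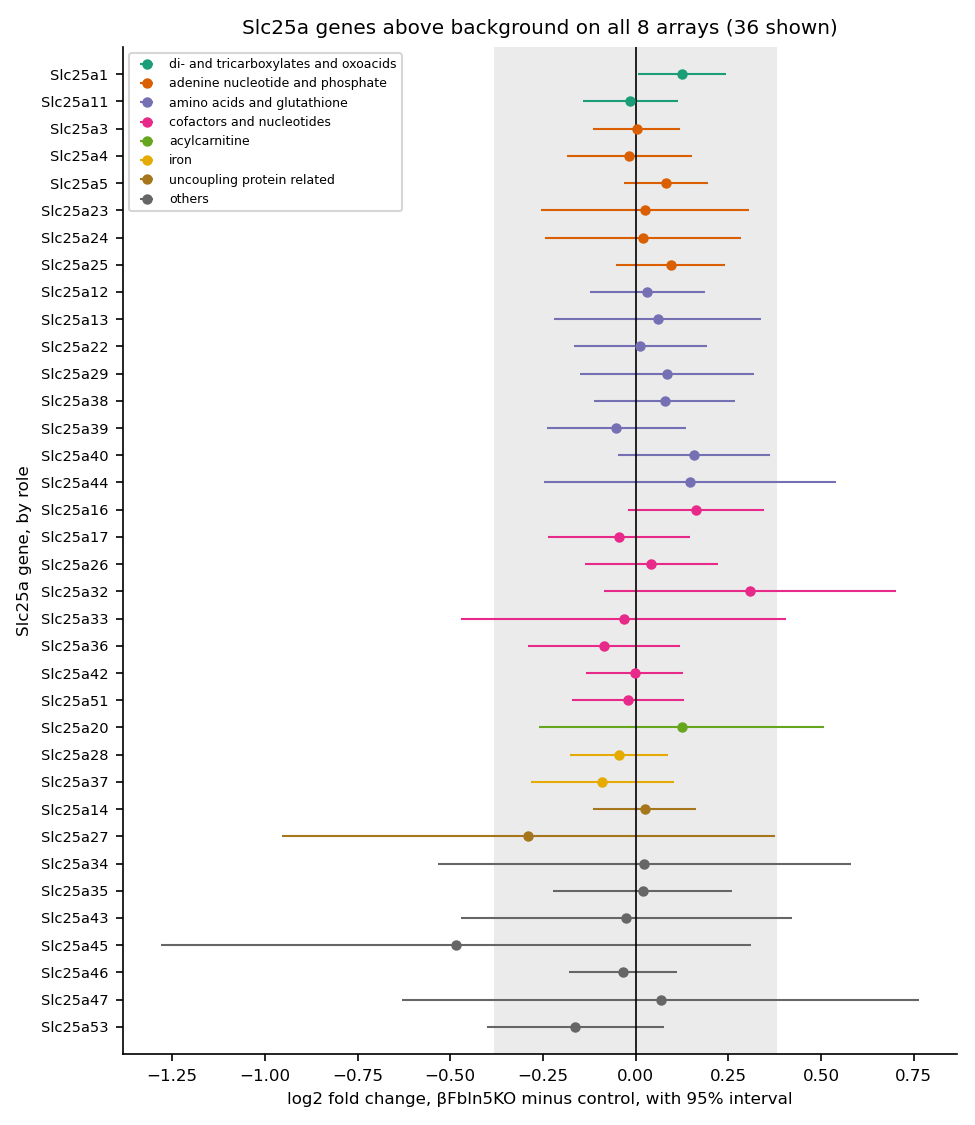
Log2 fold change (βFbln5KO minus control) of 36 of the Slc25a genes well above background on all 8 arrays, with the 95% interval from limma as the line, grouped and coloured by what each carrier transports. The grey band marks 1.3-fold in either direction, which holds the whole interval for 26 of those plotted, and all but 1 interval, that of Slc25a1, include 0.

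The carriers of carboxylates hold the one call among well-detected members. Slc25a1, the citrate carrier that exports citrate to the cytosol, had levels of 2.69, 2.84, 2.77 and 2.82 on the control arrays and of 2.88, 2.93, 2.82 and 2.97 on the βFbln5KO arrays. The groups overlapped by a narrow margin, with 3 of the 4 βFbln5KO arrays above every control array. Means were 2.78 ± 0.0659 in control and 2.90 ± 0.0648 in βFbln5KO (SD, n = 4 each). The log2 fold change was 0.13 (SE 0.0524, 95% interval 0.006 to 0.24, fold 1.09), with a limma p of 0.0416, an adjusted p of 0.179 and an exact two-sided permutation p of 0.0571. The second probe of the gene gave 0.043 on the log2 scale (95% interval −0.091 to 0.18, limma adjusted p = 0.747). Without the fourth βFbln5KO array the first probe gave 0.10 (limma adjusted p = 0.298).

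Slc25a11, the oxoglutarate carrier of the malate-aspartate shuttle, was at 3.57, 3.57, 3.72 and 3.74 in control and at 3.64, 3.62, 3.68 and 3.60 in βFbln5KO. All βFbln5KO values lay inside the control range, and the log2 fold change of −0.014 had a 95% interval of −0.14 to 0.11. Slc25a10, the dicarboxylate carrier, was near the detection limit, which it passed on 2 of the control arrays and 0 of the others. Its levels were −4.86, −4.67, −5.03 and −5.28 in control and −5.63, −4.67, −4.87 and −5.22 in βFbln5KO, which overlap (exact permutation p = 0.657), and no fold is given for it.

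The ADP/ATP and phosphate carriers, which feed oxidative phosphorylation, had narrow intervals. All 6 detected throughout had intervals inside the 1.3-fold bound, with log2 fold changes from −0.017 to 0.095. Slc25a3, the phosphate carrier, was at 4.26, 4.24, 4.34 and 4.37 in control and at 4.34, 4.31, 4.34 and 4.25 in βFbln5KO. This was the smallest spread of any detected carrier (pooled SD 0.0534), and its log2 fold change was 0.0034 with a 95% interval of −0.11 to 0.12. A second probe, detected throughout, had 3 of 4 βFbln5KO arrays above every control array and gave 0.14 (95% interval −0.017 to 0.30, exact permutation p = 0.0571).

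Slc25a4, the ADP/ATP carrier of heart and muscle, was at 5.24, 5.45, 5.49 and 5.39 in control and at 5.28, 5.36, 5.49 and 5.36 in βFbln5KO. The log2 fold change was −0.017 (95% interval −0.19 to 0.15). Slc25a5, the ADP/ATP carrier of most other tissues, was at 3.51, 3.57, 3.52 and 3.59 in control and at 3.73, 3.58, 3.63 and 3.59 in βFbln5KO. Here 2 of 4 βFbln5KO arrays lay above all control arrays, and the log2 fold change was 0.083 (95% interval −0.03 to 0.20, exact permutation p = 0.0857). The ATP-Mg/phosphate carriers Slc25a23, Slc25a24 and Slc25a25, which set the size of the matrix adenine nucleotide pool, gave 0.026, 0.02 and 0.095.

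Of the 8 detected carriers of amino acids and glutathione, 7 had a log2 fold change above 0, with a median of 0.069 and no call. Without the fourth βFbln5KO array 5 of the 8 were above 0, with a median of 0.044, and over all genes detected throughout 6339 of 13650 were above 0 with all arrays and 5923 without that array. Slc25a12, the aspartate/glutamate carrier Aralar1 of the malate-aspartate shuttle, was at 2.47, 2.70, 2.58 and 2.70 in control and at 2.56, 2.64, 2.76 and 2.62 in βFbln5KO, a log2 fold change of 0.032 (95% interval −0.12 to 0.19). Its 3 probes differed in sign, with 0.032, 0.11 and −0.23, none of them called. Slc25a13, the aspartate/glutamate carrier citrin, was at −1.62, −1.35, −1.53 and −1.56 in control and at −1.44, −1.72, −1.48 and −1.18 in βFbln5KO. The βFbln5KO arrays spread to both sides of the control arrays, and the log2 fold change was 0.06 (95% interval −0.22 to 0.34).

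Slc25a22, a glutamate carrier, was at −0.94, −0.92, −0.72 and −0.88 in control and at −0.96, −0.87, −0.85 and −0.73 in βFbln5KO. The ranges almost coincided, and the log2 fold change was 0.012 (95% interval −0.17 to 0.19). The member of this group farthest from 0 was Slc25a40, with Slc25a39 a carrier of mitochondrial glutathione, at 0.16 (95% interval −0.048 to 0.36). The brightest probe of Slc25a39 gave −0.052 (95% interval −0.24 to 0.14), and a second one detected throughout gave 0.13 (95% interval −0.063 to 0.32). Slc25a40 and Slc25a39 were singled out after their values were seen.

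The 9 carriers of cofactors and nucleotides were all detected throughout and gave log2 fold changes from −0.084 to 0.31, with 3 above 0, 6 below and 0 called. Slc25a51, the NAD carrier, was at 4.35, 4.37, 4.48 and 4.52 in control and at 4.28, 4.39, 4.47 and 4.49 in βFbln5KO, a log2 fold change of −0.021 (95% interval −0.17 to 0.13). The value farthest from 0 came from Slc25a32, the folate carrier, named after its values were seen. It was at −0.44, −0.73, −0.54 and −0.26 in control and at 0.012, −0.69, 0.093 and −0.15 in βFbln5KO. Of the βFbln5KO arrays, 3 were above every control array and the second was close to the lowest control array (log2 fold change 0.31, SE 0.173, exact permutation p = 0.171). Without that second array the value was 0.48 (limma adjusted p = 0.171). With the replicate number as a block the gene passed the unadjusted threshold at 0.31 (limma adjusted p = 0.219). A dimmer probe, at −4.04 to −3.85 in control and −4.45 to −4.03 in βFbln5KO, was well above background on only 1 of the latter arrays and is given no fold. With the mean of both probes the value turned to −0.0092.

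Slc25a20, the carnitine/acylcarnitine carrier that admits long-chain fatty acids for β-oxidation, was at −1.99, −1.72, −1.50 and −2.30 in control and at −1.68, −1.82, −1.88 and −1.63 in βFbln5KO. The control arrays enclosed all βFbln5KO arrays, and the log2 fold change of 0.12 had a wide 95% interval of −0.26 to 0.51. The mitoferrins, which import iron, both had narrow intervals. Slc25a37, mitoferrin-1, was at 0.11, −0.08, 0.16 and −0.037 in control and at −0.23, −0.07, 0.029 and 0.067 in βFbln5KO (log2 fold change −0.09, 95% interval −0.28 to 0.10). Slc25a28, mitoferrin-2, was at 1.90, 2.01, 1.99 and 2.05 in control and at 1.87, 2.00, 2.04 and 1.86 in βFbln5KO (log2 fold change −0.045, 95% interval −0.18 to 0.086). Neither mitoferrin separated the genotypes.

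**Figure D2:**
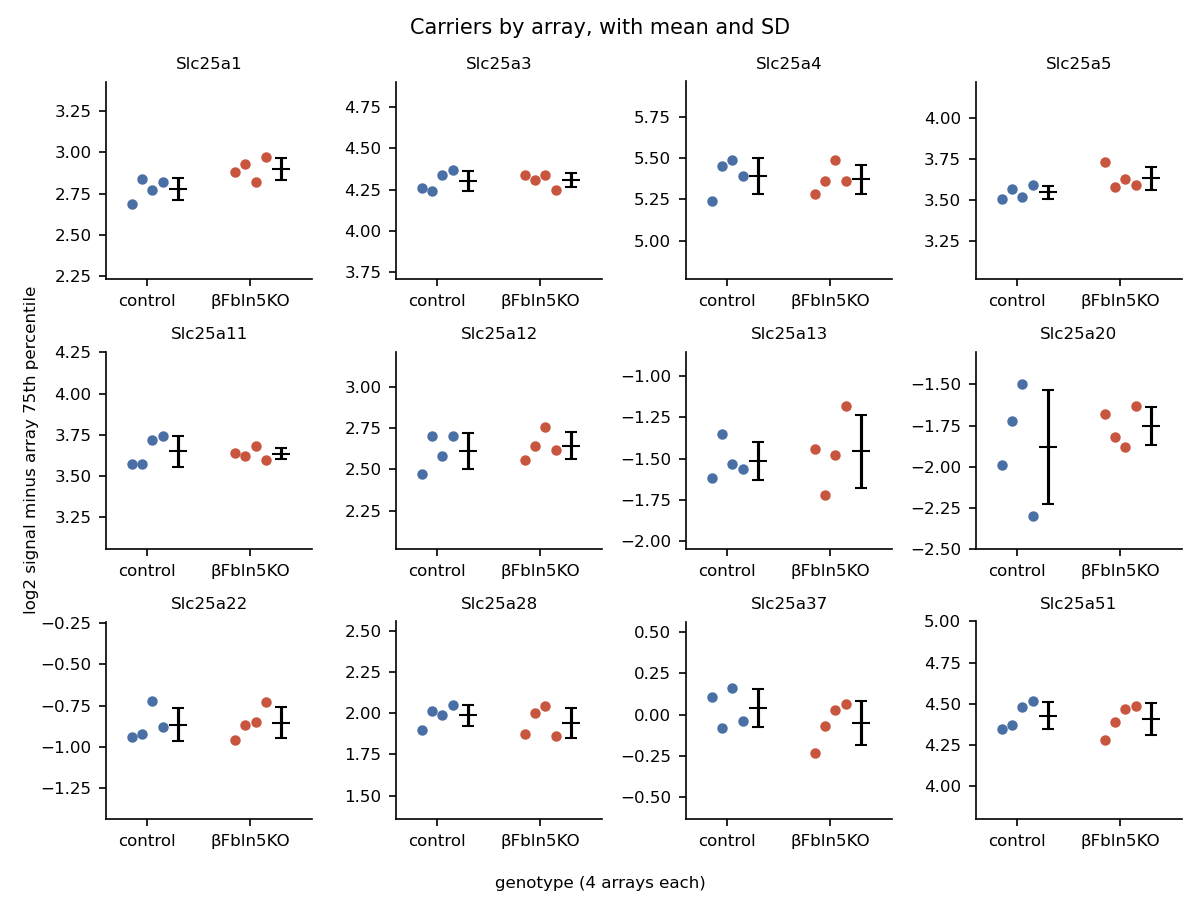
Levels of 12 carriers (y axis, log2 signal minus the array's 75th percentile, each panel spanning 1.2 log2 units) on the 4 control (blue) and 4 βFbln5KO (red) arrays, with the mean and SD in black. Each panel has its own range of levels, and the groups overlap in every panel, with Slc25a1 and Slc25a5 the closest to separation.

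Different probes of one gene give a second view of each value. For 16 carriers, 2 or more probes were detected throughout. In 7 of the 16 genes (among them Slc25a4, Slc25a11, Slc25a12, Slc25a23, Slc25a26 and Slc25a39) these probes differed in the sign of the log2 fold change. Within a gene the values spanned between 0.0068 and 0.49. The widest span was that of Slc25a36, a carrier of pyrimidine nucleotides, a member chosen here after its values were seen. Its brightest probe, which matched a curated RefSeq transcript, was at −0.29, −0.59, −0.25 and −0.30 in control and at −0.56, −0.49, −0.34 and −0.38 in βFbln5KO, a log2 fold change of −0.084 (exact permutation p = 0.371). The second probe, which matched a predicted RefSeq transcript, was at −0.74, −1.34, −0.93 and −1.05 in control and at −1.73, −1.62, −1.42 and −1.60 in βFbln5KO.

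Every βFbln5KO array of the second Slc25a36 probe lay below every control array. The log2 fold change was −0.58 (SE 0.132, 95% interval −0.88 to −0.28, fold 0.67), with a limma p of 0.0019, an adjusted p of 0.0728 and an exact two-sided permutation p of 0.0286, the smallest that 4 against 4 arrays allow. Over the other settings the log2 fold change ran from −0.69 to −0.49 and the adjusted p from 0.0329 to 1. It passed the threshold in 2 settings, in which far more probes of any gene passed, 20.4% without the fourth βFbln5KO array (−0.57, adjusted p = 0.0329) and 11.6% with eBayes without trend (adjusted p = 0.0498). The unadjusted limma p was larger in both than with all arrays. The probes of this gene thus gave unequal differences, and the difference between them was not tested.

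The start regions of Slc25a1 and Slc25a36 are shown because these genes held the lowest unadjusted p-values among probes detected on all arrays. Each runs from 250 bases before the annotated start to 50 bases after it, in RefSeq on build GRCm38.p6. Slc25a1 lies on the minus strand at chr16:17928170-17928469, and Slc25a36 on the minus strand at chr9:97110992-97111291. Both are printed in the direction of transcription. Capitals mark matches on either strand to the GC box GGGCGG, the CCAAT box CCAAT, the E-box CACGTG, the cAMP response element TGACGTCA and the NRF-1 palindrome GCGCATGC.
Slc25a1: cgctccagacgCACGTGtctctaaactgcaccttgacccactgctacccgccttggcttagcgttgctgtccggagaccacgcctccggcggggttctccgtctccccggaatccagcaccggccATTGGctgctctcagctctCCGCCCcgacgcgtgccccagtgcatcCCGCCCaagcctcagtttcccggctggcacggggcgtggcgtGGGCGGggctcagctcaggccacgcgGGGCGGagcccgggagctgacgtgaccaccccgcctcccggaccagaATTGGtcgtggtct
Slc25a36: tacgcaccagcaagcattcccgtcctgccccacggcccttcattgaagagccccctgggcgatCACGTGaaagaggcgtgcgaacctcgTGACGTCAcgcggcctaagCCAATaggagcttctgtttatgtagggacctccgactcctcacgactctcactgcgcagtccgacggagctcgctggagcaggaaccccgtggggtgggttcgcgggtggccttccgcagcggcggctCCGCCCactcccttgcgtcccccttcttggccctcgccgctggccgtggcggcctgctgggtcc

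The Slc25a1 window held 4 GC boxes, 2 CCAAT boxes and 1 E-box, and the Slc25a36 window held 1 of each together with 1 cAMP response element. Of all 32851 windows in the table, 35.7% held a GC box, 37.4% a CCAAT box, 7.15% an E-box, 1.79% a cAMP response element and 2.71% the NRF-1 palindrome, which was in neither window. Some other members had no window in the table, so no count over the family is given. These matches are descriptions of the letters and do not show that a factor binds.

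Some carriers varied between single arrays more than between genotypes, in part on more than 1 probe of the gene. These members were chosen after their values were seen. Slc25a27, the uncoupling protein UCP4, was at 0.49, 0.49, 0.98 and −0.43 in control and at 0.27, 0.35, −0.46 and 0.22 in βFbln5KO. The fourth control and the third βFbln5KO array were lowest, and they were also the lowest on a second probe, with −3.93 and −3.79 beside −3.05 to −2.69 on the other 6 arrays. On the dimmest of its probes, well above background on 5 arrays, the lowest were the fourth control (−4.79) and the fourth βFbln5KO array (−4.76). The log2 fold change of the brightest probe was −0.29 (95% interval −0.95 to 0.37), and it ran from −0.56 (limma adjusted p = 0.151) without the fourth control array to −0.089 without the third control array.

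Slc25a25, the ATP-Mg/phosphate carrier described above, was at 1.19, 1.20, 1.20 and 1.23 in control and at 1.20, 1.26, 1.49 and 1.25 in βFbln5KO. The third βFbln5KO array was the highest on all 3 detected probes, at 1.49, 0.79 and 0.57. The log2 fold changes of the 3 probes were 0.095, 0.24 and 0.11, with exact permutation p-values of 0.0857, 0.0571 and 0.286. The mean of all probes of the gene, including 1 that was not well above background on any array, passed the unadjusted threshold at 0.19 (limma adjusted p = 0.182).

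**Figure D3:**
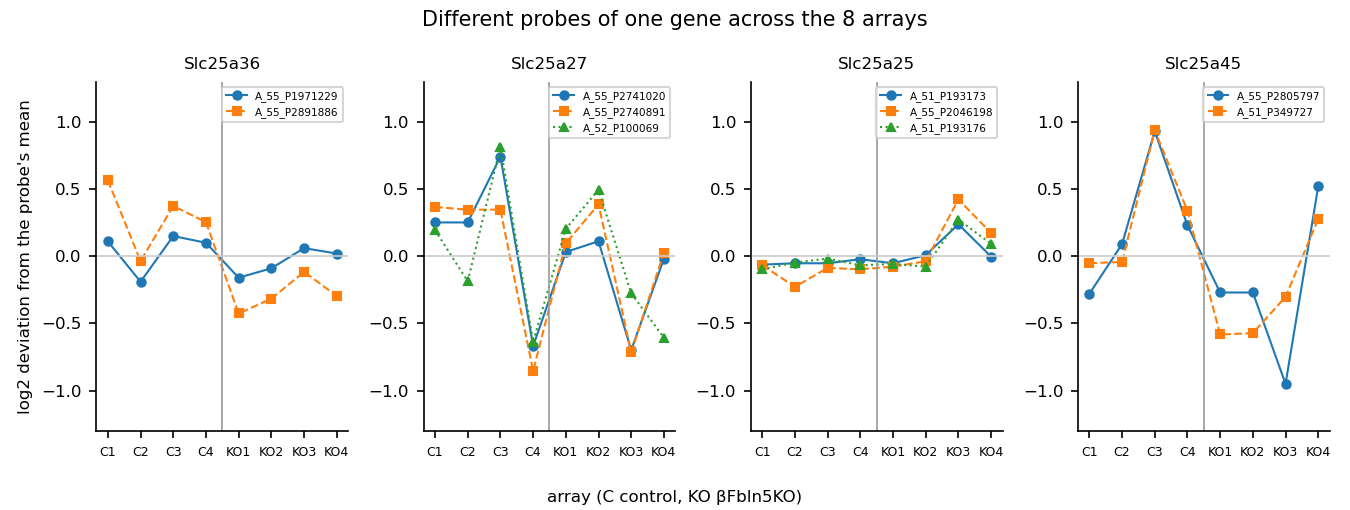
Deviation of each probe from its own mean (y axis, log2 units) on the 8 arrays (x axis, C control and KO βFbln5KO) for probes of Slc25a36, Slc25a27, Slc25a25 and Slc25a45 that were well above background on at least 5 arrays, with 1 line per probe. For Slc25a36 the squares separate the genotypes and the circles do not, for Slc25a27 all probes are low on C4, and for Slc25a25 all are highest on KO3.

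Slc25a45 had the widest spread of any carrier detected throughout (pooled SD 0.557, beside a median of 0.12 for these carriers and 0.128 for all genes detected throughout). It was at −3.37, −3.00, −2.16 and −2.86 in control and at −3.36, −3.36, −4.04 and −2.57 in βFbln5KO, which overlapped (log2 fold change −0.48, SE 0.35, exact permutation p = 0.286). Without the fourth βFbln5KO array the value was −0.74 (limma adjusted p = 0.207), and without the third it was −0.25. Its second probe was at −4.06, −4.05, −3.07 and −3.67 in control and at −4.59, −4.58, −4.31 and −3.73 in βFbln5KO, also highest on the third control array. The third βFbln5KO array, lowest on the brightest probe, was not lowest on the second, which was well above background on 1 βFbln5KO array.

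The level of Slc25a45 moved with that of the acinar markers, whose mean was 6.87, 6.56, 8.34 and 8.02 in control and 6.81, 5.65, 5.80 and 7.58 in βFbln5KO. Across the 8 arrays Pearson's r was 0.848 (exact permutation p = 0.00776) and Spearman's rho 0.762 (exact permutation p = 0.0368). The relation was 1 of 37 computed, and it did not pass adjustment over them (adjusted p = 0.287 for r and 0.68 for rho). Slc25a46, an outer-membrane member, had a higher rho of 0.786 (exact permutation p = 0.0279, adjusted p = 0.68) and an r of 0.712 (exact permutation p = 0.0456, adjusted p = 0.727). Without the 2 arrays farthest from the median acinar level, the third control and the second βFbln5KO array, r was 0.842 for Slc25a45 and 0.516 for Slc25a46. Within the slide rows, which hold 4 arrays of 1 genotype each, r was 0.794 in control and 0.817 in βFbln5KO for Slc25a45, and 0.65 and 0.902 for Slc25a46, given as a description. With the acinar level as a covariate, added after the values were seen, the log2 fold change of Slc25a45 was 0.016 (limma adjusted p = 0.988). The mean acinar level was itself lower in βFbln5KO, by a difference of −0.99 on the log2 scale, and the part of acinar tissue in the level of Slc25a45 was not tested.

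**Figure D4:**
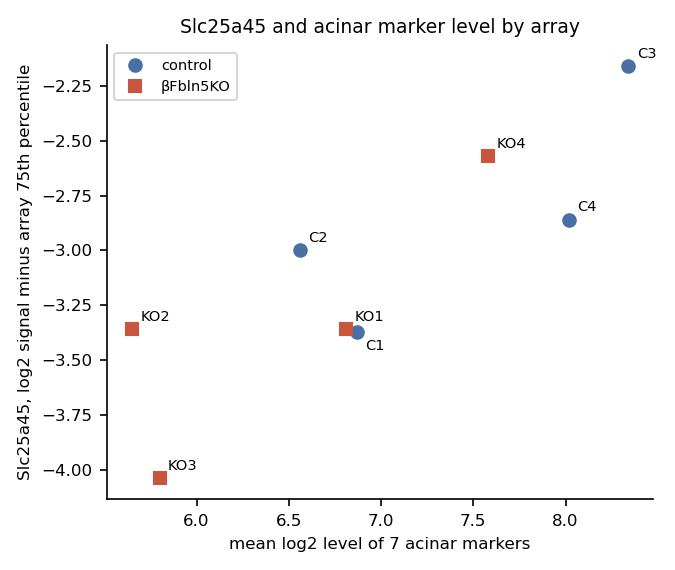
Level of Slc25a45 (y axis, log2 signal minus the array's 75th percentile) against the mean log2 level of 7 acinar markers (x axis) on the 4 control (circles) and 4 βFbln5KO (squares) arrays. The highest Slc25a45 value, −2.16, is on the third control array, which also has the highest acinar level, 8.34.

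The 10 members not detected throughout, Slc25a10 above among them, lay near or below the detection limit, and no fold is given for them. Slc25a31, the ADP/ATP carrier best known from testis, was at −6.73, −6.99, −7.07 and −6.93 in control and at −6.32, −6.41, −6.39 and −4.39 in βFbln5KO. It was well above background on the fourth βFbln5KO array alone, and the groups did not overlap (limma p = 0.0391, adjusted p = 0.171, exact permutation p = 0.0286). Without that array the limma p was 0.000862 and the adjusted p 0.00556, from signals that were not well above background on any of the other 7 arrays and in the fit in which 20.4% of all probes passed. The lowest measurable signals were themselves higher on the βFbln5KO arrays, as given above, and their part in this value was not tested.

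Slc25a48, a carrier linked to choline import, was at −5.09, −4.98, −4.49 and −4.86 in control and at −5.49, −5.28, −6.45 and −5.49 in βFbln5KO. The groups did not overlap (limma p = 0.0286, adjusted p = 0.138, exact permutation p = 0.0286), but only 1 control array was well above background. Slc25a54 was at −7.17, −7.14, −7.30 and −7.09 in control and at −3.72, −6.56, −6.61 and −7.00 in βFbln5KO, with the first βFbln5KO array alone well above background and no overlap between groups (limma adjusted p = 0.302). Groups thus did not overlap for 3 of the 10 carriers not detected throughout, namely Slc25a31, Slc25a48 and Slc25a54. The same held for 4084 of all 22911 genes, of which 383 were among the 13650 detected throughout. The other dim members were Slc25a2 and Slc25a15, ornithine carriers, Slc25a18, a glutamate carrier, Slc25a30, Slc25a21 and Slc25a41, and their groups overlapped.

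**Figure D5:**
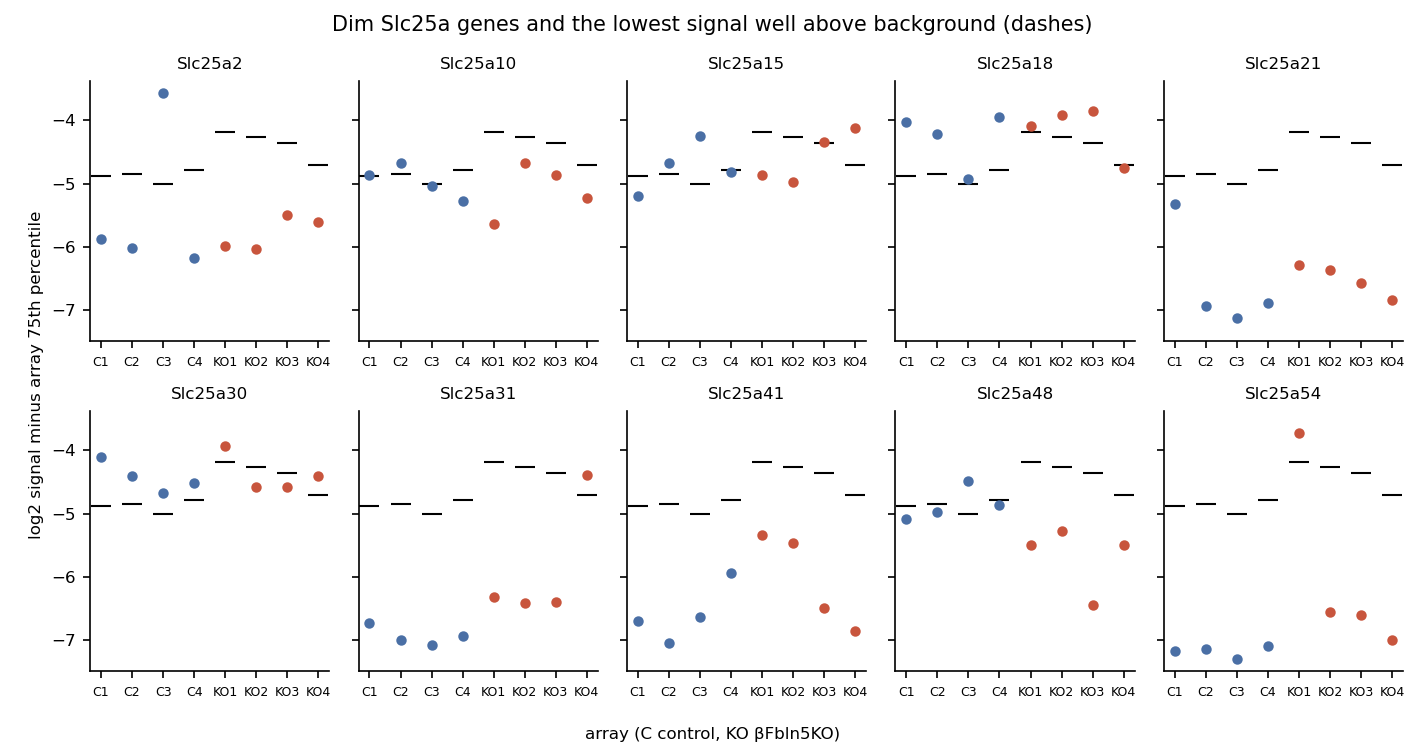
Levels of the 10 Slc25a genes not well above background on every array (y axis, log2 signal minus the array's 75th percentile) on the control (C, blue) and βFbln5KO (KO, red) arrays, with a dash at each array's lowest signal well above background. The dashes span −5.01 to −4.79 for control and −4.70 to −4.19 for βFbln5KO, and single arrays stand out for Slc25a2 (−3.57), Slc25a31 (−4.39) and Slc25a54 (−3.72).

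Genes that work with the family were read in the same way. Carrier proteins reach the inner membrane through the outer-membrane TOM complex, small TIM chaperones and the TIM22 complex, and all 13 genes of that route were detected throughout, with a median log2 fold change of 0.017. At an unadjusted p under 0.05, 1 was higher and 0 were lower, beside 1.01% and 3.08% of all genes detected throughout. The higher one was Timm29, a TIM22 subunit, at a mean of −2.37 in control and −2.04 in βFbln5KO (log2 fold change 0.34, SE 0.141, limma adjusted p = 0.18). Its groups did not overlap, as in 2.81% of those genes. Timm22, the channel of that complex, gave −0.0029.

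Of 17 other mitochondrial transport genes, 16 were detected throughout and 0 were called, with a median log2 fold change of −0.028. Among the 17, Ucp1, Ucp2, Ucp3, Mtch1 and Mtch2 are carriers of the same fold that only the symbol rule left out. Ucp2, the uncoupling protein expressed in β-cells, gave 0.056 (95% interval −0.057 to 0.17), and Ucp3 gave 0.023. Ucp1 was not well above background on any array. The outer-membrane proteins Mtch1 and Mtch2 gave −0.026 and 0.039. The 12 enzymes of the malate-aspartate, glycerol phosphate and citrate shuttles, which use the metabolites these carriers move, had 0 calls, a median of −0.0065 and a range of −0.068 to 0.093, and all 12 had an interval inside the 1.3-fold bound.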

How the data were processed

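Islet RNA from 4 control and 4 βFbln5KO samples was hybridised to Agilent mouse arrays with 1 colour. The authors deposited, per array, the intensity that Agilent Feature Extraction 11.0.1.1 calls the processed signal (background subtracted and spatially detrended, default parameters), with flags for outliers and for spots well above background. They also deposited a table of 35553 probes whose values are a ratio of that signal to 1 number per array, and 99.8% of its values lay within 0.001 log2 of a constant offset from the log2 signals used here.

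Signals of the 59305 non-control spots per array were log2-transformed and expressed relative to the 75th percentile of their array. Outlier values were left out (1689 of 474440), and spots of a probe were averaged. Of the 56605 probes, 32994 were named through their RefSeq accession. All 8 arrays entered a limma 3.58.1 fit (lmFit, eBayes with trend) in R 4.3.3. It gave 95% intervals and p-values, which were adjusted across the 56605 probes (Benjamini-Hochberg, threshold 0.05). Single values were also compared by exact two-sided permutation tests over arrays, which cannot give a p below 0.0286. The number of arrays limits the precision.

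Full values are given for carriers with an unadjusted p under 0.05 and at least 1 array well above background, and for 13 carriers of known metabolic roles. The values of 1 member are not reported here. The members, role groups and lists were chosen with earlier results of these data known. Same-numbered replicates had correlations of 0.20, 0.30, −0.22 and −0.022. For replicates 1 and 2 the best partner was the same number, while 3 and 4 matched each other crosswise. The red blood cell markers Hba-a1, Hbb-bt and Alas2 ranked the replicate numbers in the same order in both groups. Whether same-numbered samples shared a preparation was not tested. The main fit did not use the numbers as pairs, and a fit with the number as a block is given beside it.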

Additional observations from a re-analysis of the deposited data

Results flagged for a closer look

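Of 94 checks of 1 gene in 1 group of 4 arrays, 6 had a single array far from the other 3, judged by the gap to the nearest array over the whole range of the group. Chance gives about 1 in 20. In 4 of the 6 the gene was not well above background on most arrays. The level of Slc25a2 was −3.57 on the third control array and −6.18 to −5.88 on the other 3. Slc25a21 was at −5.32 on the first control array and at −7.13 to −6.89 on the others, with no array well above background. Slc25a31 was at −4.39 on the fourth βFbln5KO array and at −6.41 to −6.32 on the others. Slc25a54 was at −3.72 on the first βFbln5KO array and at −7.00 to −6.56 on the others. The other two genes were detected on all 8 arrays. Slc25a27 was at −0.46 on the third βFbln5KO array and at 0.22 to 0.35 on the others, and Slc25a36 was at −0.59 on the second control array and at −0.30 to −0.25 on the others.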

How the results depend on the processing

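The median log2 fold change of all carriers ran from 0.0086 to 0.039 over settings with all arrays and from −0.013 to 0.041 without single arrays, its sign turning without the fourth βFbln5KO array. For detected carriers it ran from 0.019 to 0.039 and from −0.017 to 0.032, turning also without the first control array (−0.012). Of the detected carriers, 21 to 31 had an interval inside the 1.3-fold bound under the settings that kept all arrays. The number of carriers higher in βFbln5KO at an unadjusted p under 0.05 was 2. It was 3 with the replicate block (Slc25a32 added) and with the acinar covariate (Slc25a16 added), 1 with the common floor, the filter on dim probes, eBayes without trend, quantile normalization and the methods' t-test, 0 with normexp and with the authors' deposited table, and 0 to 2 when single arrays were left out. With the mean of all probes it was again 2, with Slc25a25 in place of Slc25a1. The number lower was 1. It was 3 with the mean of all probes and 0 with normexp, quantile normalization, the filter, the floor, the deposited table and the acinar covariate, and 0 to 1 without single arrays. With the replicate block it was also 0, through Slc25a48 (limma adjusted p = 0.267). The number past the adjusted threshold was 0 with all arrays under each setting, the methods' t-test included, and 0 to 1 without single arrays, the 1 being Slc25a31 without the fourth βFbln5KO array. Of all probes, 0.0106% passed with all arrays, 11.6% with eBayes without trend, 0.00353% to 0.154% under the other settings with all arrays for which the share was counted, and 20.4% without the fourth βFbln5KO array. The filter kept 39 members and the deposited table held 38.

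Over the arrays left out in turn Fbln5 ran from −0.78 to −0.33, the first without the fourth βFbln5KO array, a fit in which 20.4% of all probes passed the adjusted threshold. Slc25a1 lost its call with normexp (0.094), eBayes without trend, the mean of its probes (0.084), the deposited table and on leaving out any of 6 single arrays (0.096 to 0.14). The mean of all probes turned Slc25a14 from 0.025 to −0.21 (limma adjusted p = 0.169), its second probe being not well above background on any array. Of 876 values for single carriers, 839 kept their direction and side of the threshold or were not called in either setting, 28 lost a call, 8 gained one and 1 reversed. The cause was not tested in the other cases. Signals near the lowest one well above background limit what can be said of the dim carriers.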
